A study of Mus musculus with 16 samples.

Results

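Cemip, Ext1 and Ext2 are 3 mouse genes of the long sugar polymers around cells, hyaluronan and heparan sulfate, and their RNAs were followed here through 8 lists of sites bound by THOC5. They were chosen by measured values of these same lists, with earlier results in view: Cemip on the presence of a peak inside it in all lists, Ext1 on the presence of its peak in the Ctrl and Pi lists only, and Ext2 as the partner of Ext1. They are 3 of the 4051 genes with a peak inside them in at least 1 list, and they hold 18 of the 28998 peaks. The lists come from RNA immunoprecipitation, in which an antibody to THOC5 pulls down the protein with the RNA it holds and that RNA is sequenced. THOC5 belongs to the THO complex, a group of proteins that couples the making of an mRNA to its export from the nucleus.

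All 16 samples are primary mouse vascular smooth muscle cells, 8 of them immunoprecipitates and 8 of them inputs. Ctrl cells are labelled wild type and were kept in growth medium, and Pi cells are labelled wild type and were kept in osteogenic medium, which drives these cells towards mineral deposition. GFP OE cells, labelled wild type, overexpressed green fluorescent protein, and THOC5 OE cells overexpressed THOC5, both in osteogenic medium, so GFP OE and THOC5 OE share with Pi the medium and differ from it in carrying an overexpressed gene. Each condition has 2 immunoprecipitates. The labels name neither the vector and promoter of the overexpression, nor the age or strain of the mice, nor whether replicates are separate cultures, so spreads between replicates may be technical. Of 10 smooth muscle markers, 5 (50%) carried a peak, against 18.0% of all protein-coding genes with a peak in at least 1 list. Mylk had one in all 8 lists and Acta2, Tagln, Smtn and Lmod1 in 1 to 3 lists. Myh11, Cnn1, Des, Myocd and Cald1 had none. Of 5 endothelial markers none had a peak, and of 5 fibroblast markers 2 (40%), Pdgfra and Col1a2, had one in Pi replicate 1, also a share above 18.0%. Of 5 leukocyte markers 1 (20%), Csf1r, had one, at its transcription end in THOC5 OE replicate 2. The site under that peak was in 3 lists, but only in THOC5 OE replicate 2 was it assigned to Csf1r. A peak gives the place of bound RNA and no level, so these markers do not measure cell purity.

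Hyaluronan is made at the cell surface by synthases, binds receptors such as CD44 and matrix proteins such as versican, and is cut into fragments by hyaluronidases and by CEMIP. CEMIP (also called KIAA1199 or HYBID) is a secreted protein needed for the breakdown of hyaluronan in fibroblasts. Heparan sulfate is built on core proteins such as perlecan and agrin by a complex of EXT1 and EXT2, the polymerase that lengthens the chain in the Golgi, and its sulfation decides which growth factors it holds. In the artery wall both polymers are part of the matrix in which smooth muscle cells lie.

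The 8 lists held 2572 to 4795 peaks, each list with a single peak width between 415 and 553 bp. The score of a peak is the one the authors deposited, on a scale that no source used here gives, and a percentile is the share of a list's peaks at or below that score. Neither reads nor inputs nor RNA levels were analysed, so the depth under a peak is unknown, a peak is not corrected for the amount of its RNA, and no peak does not mean no binding. Coordinates are those of the mm10 build as deposited, and the strand column reads plus for each peak, so the strand of the bound RNA is not known.

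Cemip (chr7:83932857-84086693, minus strand) was bound in all 8 lists, always within introns and always among the strongest peaks. Bound in every list were 9.87% of the 4051 genes, and since Cemip was chosen for this, nothing is read from it. The 13 Cemip peaks fell on 3 sites, in introns 3, 8 and 10 of 28, and none of the 13 lay in an exon, in a UTR or on an annotated repeat. The site of intron 3 lay 87.8 kb from the gene's 5' end, that of intron 8 lay 99.0 kb from it and that of intron 10 lay 104 kb from it (means over the lists). No site was common to all 8 lists.

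Ctrl replicate 1 had a peak of score 1650.2 in intron 8 (chr7:83987462-83987905) and a peak of score 1647.3 in intron 3 (chr7:83998654-83999097). Ctrl replicate 2 had the same pair, with scores of 1683.9 and 1656.6 in that order. Pi replicate 2 had them at 1537.1 and 1506.2. The list of GFP OE replicate 1 held the pair too, at 1463.3 in intron 8 and 1400.4 in intron 3. So did that of THOC5 OE replicate 1, at 1714 and 1664.6. The intron 8 peak was the higher of the pair in 5 of 5 lists, by a ratio of 1.02 on average (SD 0.016, n = 5 lists, range 1.00 to 1.04). The sites of the pair were 11.2 kb apart.

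The other 3 lists lacked both of these and had a single peak in intron 10 instead, 4.97 kb from the intron 8 site. Its score was 2150.2 in Pi replicate 1 (chr7:83982446-83982999), 1632 in GFP OE replicate 2 (chr7:83982420-83982949) and 1979.6 in THOC5 OE replicate 2 (chr7:83982429-83982967). Sites therefore did not set the 3 osteogenic conditions apart: in each of them, 1 replicate had the intron 10 site and the other had the pair. In Ctrl both replicates had the pair, and whether the site goes with the medium was not tested. The width of the peaks moved with the site. It was 529 to 553 bp in the 3 lists with the intron 10 site and 415 to 473 bp in the 5 lists with the pair, without overlap. The part of peak width in the place of the Cemip peaks was not tested. Within each site the places were close, with centres spread over 38 bp in intron 10 (n = 3 lists), 34 bp in intron 8 (n = 5) and 21 bp in intron 3 (n = 5).

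**Figure D1:**
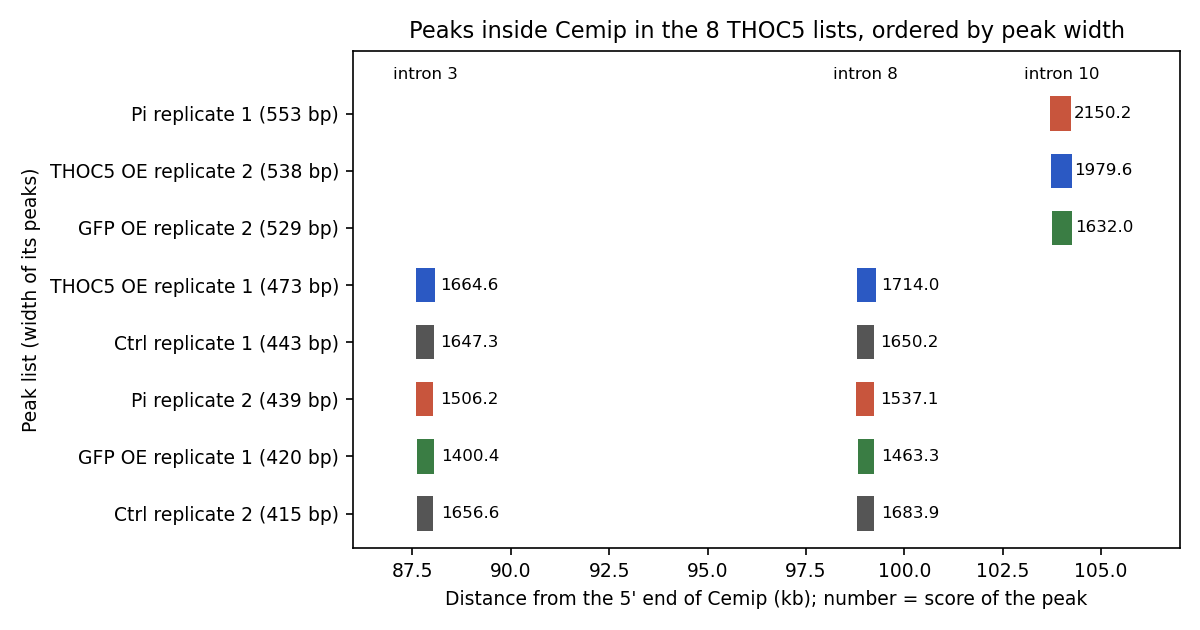
Peaks inside Cemip, drawn to scale as bars at their distance in kb from the gene's 5' end, with 1 row per list and the lists ordered by the width of their peaks; the number beside a bar is the score the authors gave, and colours mark the condition. The 3 lists of 529 to 553 bp have a single peak in intron 10, and the 5 lists of 415 to 473 bp have a peak in intron 8 and one in intron 3.

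A change of site between lists was common among the genes bound everywhere. Of the 400 genes with a peak in all 8 lists, 53.5% had no site shared by all 8, and in 15.0% the most recurrent site was in 5 lists or fewer, as in Cemip. The exact combinations of lists seen in Cemip were then counted over all sites. Of 12362 sites, 0.299% were in exactly the 5 lists that hold the Cemip pair and 0.526% in exactly the other 3, shares that have no like count for other combinations beside them. Cemip held the strongest site of each kind by lowest percentile: 99.6 for intron 8 and 99.5 for intron 10, followed by Ubr4 (97.6) among sites in the 5 lists, after the intron 3 site of Cemip, and by Ogt (94.9) among those in the 3 lists. Of the 400 genes, 0.750% had both kinds of site, and these were Cemip, the lysosomal trafficking gene Lyst and the nuclease gene Snd1. This split was looked at after the Cemip sites had been seen, and it is given as a description.

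The strongest Cemip peak ranked between 6 and 15 in each list. It was 10 of 2603 peaks in Ctrl replicate 1, 12 of 4795 in Ctrl replicate 2, 6 of 2666 in Pi replicate 1 and 12 of 3793 in Pi replicate 2. The GFP OE lists had it at 15 of 3711 and 13 of 2572, those of THOC5 OE at 12 of 4618 and 10 of 4240. Growth medium gave a mean percentile of 99.71 (SD 0.082, n = 2) and osteogenic medium alone 99.76 (SD 0.072, n = 2). With GFP overexpressed it was 99.58 (SD 0.063, n = 2) and with THOC5 overexpressed 99.77 (SD 0.018, n = 2). The GFP OE lists were the lowest, the higher of them at 99.62 next to 99.65 in Ctrl replicate 1. How many other genes show this order was not counted, so nothing is read from it. Against the lowest score of its own list, the Cemip score was 56.9 times as high in Ctrl replicate 1 and up to 314 times in THOC5 OE replicate 2, a ratio that also moves with how low each list reaches.

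**Figure D2:**
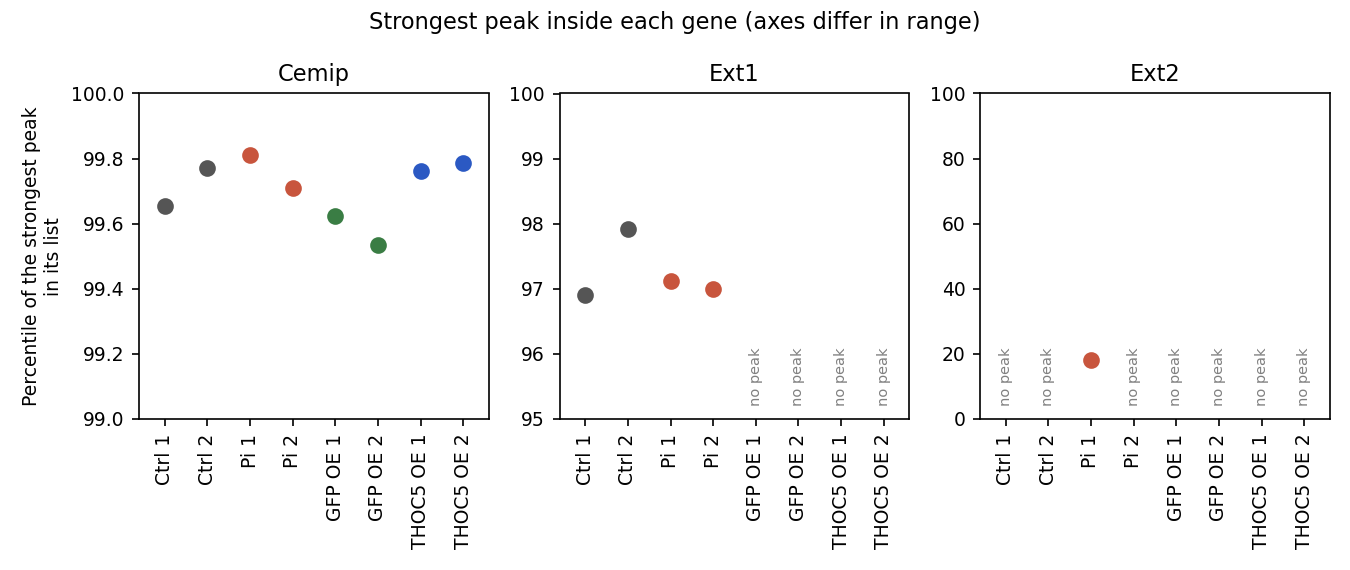
Percentile of the strongest peak inside Cemip, Ext1 and Ext2 in each of the 8 lists, with 1 point per list, colours by condition and a vertical axis of its own for each gene. Cemip stays between 99.5 and 99.8 in every list, Ext1 lies between 96.9 and 97.9 in the Ctrl and Pi lists and has no peak in the other 4, and Ext2 has a single peak at percentile 18.2.

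No difference between conditions in the number of Cemip peaks or in the percentile of the strongest passed the test, and after adjustment none could have. Cemip had 2 peaks per list in Ctrl (SD 0, n = 2) and 1.5 in each osteogenic condition (SD 0.707, n = 2). The 4 overexpression lists had 0.25 fewer peaks than the 4 Ctrl and Pi lists (difference -0.25, two-sided exact permutation p 1, adjusted 1). The difference in their percentile was -0.060 (99.68 against 99.74, two-sided exact permutation p 0.4, adjusted p 1), which moved between -0.097 and -0.013 when 1 list was left out. Between Pi and Ctrl it differed by 0.049 (exact permutation p 0.667), between THOC5 OE and GFP OE by 0.20 (exact permutation p 0.333) and between GFP OE and Pi by -0.18 (exact permutation p 0.333). With 2 lists against 2 the smallest possible p is 0.333, so these comparisons cannot pass 0.05, and each adjusted p over the 8 tests was 1. With 4 lists against 4 it is 0.0286 for values without ties, and higher for the peak counts, which are tied. After adjustment over the 8 tests the comparisons of 4 against 4 could not pass 0.05 either, so no likeness of the conditions is read from these tests. The share of Cemip peaks in exons was 0 in every list and could not be tested.

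The gene that the authors' table gives as nearest was Cemip for 5 of the 13 peaks and Mesd, a neighbour outside which all 13 lie, for the other 8. All 5 are the peaks of intron 3. Read by nearest gene, Cemip would be bound in 5 of 8 lists and missing from Pi replicate 1, GFP OE replicate 2 and THOC5 OE replicate 2. All 13 peaks also lie within the span of Gm30440 (chr7:83970233-84024735), a long noncoding RNA gene that RefSeq places on the plus strand, antisense to Cemip. Since the lists carry no strand, RNA of Cemip and of Gm30440 cannot be told apart at these sites.

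Genes of like rank had their strongest peak elsewhere in the gene. The 5 genes whose percentiles over the 8 lists were most like those of Cemip were the spectrin gene Sptbn1, Prrc2c, the dynein heavy chain gene Dync1h1, Nisch and the kinase-like gene Peak1, with mean absolute differences of 0.105 to 0.223 percentile points. In each of these 5 the strongest peak was outside introns in 8 of 8 lists, and in Cemip it was in an intron in 8 of 8. Sptbn1, Prrc2c, Dync1h1 and Nisch had a site shared by all 8 lists, and Peak1 one shared by 7. Introns held 5 to 7 of the 20 strongest peaks of each list, 1 or 2 of which were those of Cemip, and 51.6% to 61.5% of all peaks of a list.

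Ext1 (chr15:53068261-53346183), which encodes a glycosyltransferase subunit of the heparan sulfate polymerase, had a single peak in each Ctrl and Pi list and none in the 4 overexpression lists. The rule chose Ext1 by this contrast, so its levels are a description without a test. All 4 peaks lay in exon 1 of 11. Ctrl replicate 1 had a score of 498 (chr15:53344911-53345354, rank 82, percentile 96.9). Ctrl replicate 2 had 523.1 (chr15:53344939-53345354, rank 101, percentile 97.9). Pi replicate 1 had 510.3 (chr15:53345161-53345714, rank 78, percentile 97.1). Pi replicate 2 had 409.7 (chr15:53344921-53345360, rank 115, percentile 97.0). The Ctrl and Pi percentiles overlapped, with means of 97.41 (SD 0.71, n = 2) and 97.05 (SD 0.083, n = 2).

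The Ext1 peaks formed 1 site by an overlap of at least 1 base, but their places were not equal. The centres of 3 peaks lay within 14 bp of each other, 1037 to 1051 bp from the transcription start, and the annotation put them in the exon outside the UTRs. That of Pi replicate 1 lay 746 bp from the start, 298 bp nearer to it than the mean of the others, and the annotation put it in the 5' UTR. It shared 194 to 200 bases with the others. Pi replicate 1 has the widest peaks of the 8 lists (553 bp), and is the same list in which Cemip was bound in intron 10 and not at the pair of sites found in Pi replicate 2. The part of peak width in this shift was not tested.

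**Figure D3:**
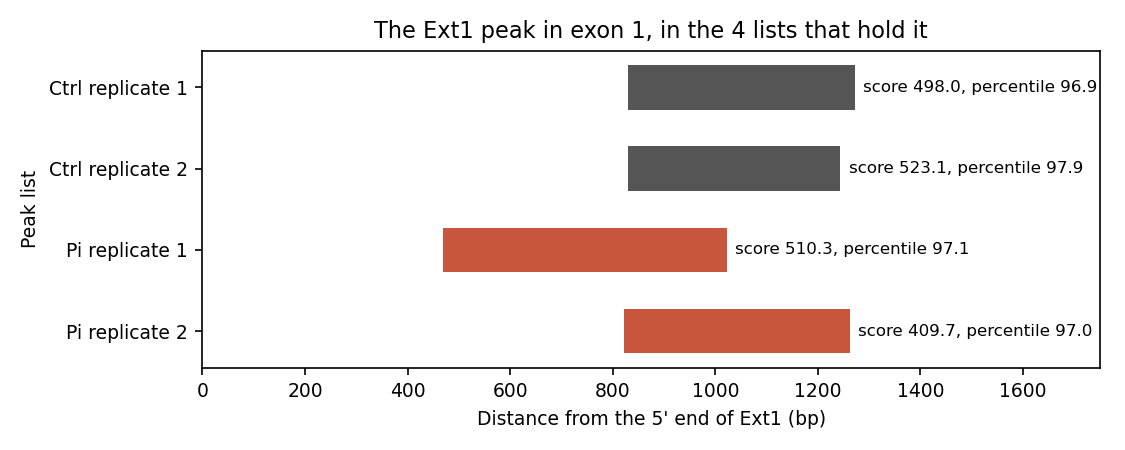
The Ext1 peak in the 4 lists that hold it, drawn to scale as bars at their distance in bp from the gene's 5' end, coloured by condition, with the score and the percentile of each. Ctrl replicates 1 and 2 and Pi replicate 2 lie over each other, and the peak of Pi replicate 1 is nearer to the 5' end and shares 194 to 200 bases with them.

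In the overexpression lists no peak lay anywhere in the span of Ext1. The closest peak on the chromosome was 1671 kb away in GFP OE replicate 1 and in both THOC5 OE lists, inside Taf2, and 2213 kb away in GFP OE replicate 2. These lists reach lower scores than the others, with a lowest score of 6.31 to 12.6 against 14.9 to 29 in Ctrl and Pi. The lowest Ext1 score, 409.7, is 32.5 to 64.9 times their lowest score, if scores are on a like scale in all lists, which no source states. Pi and GFP OE share the medium, and Ext1 was bound in 2 of 2 Pi lists and 0 of 2 GFP OE lists. The choice of Ext1 by this pattern fixed the split in advance, so nothing is read from it. Whether Ext1 RNA was present at the same level in Pi and GFP OE cells was not tested.

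Bound in all 4 Ctrl and Pi lists and in no overexpression list were 28 genes, 0.691% of the 4051. The reverse pattern was held by 44 genes (1.09%). Of the 28, Ext1 had the highest lowest percentile (96.9), followed by Rusc2 (94.7) and Srebf1 (88.0), and the range of the others went down to 2.79. The genes most like Ext1 over the 8 lists, with no peak counted as 0, were Rusc2 (mean absolute difference 0.818 percentile points), the sterol regulator gene Srebf1 (3.34), Zfp217 (5.73), Ankrd10 (6.26) and the casein kinase gene Csnk1a1 (6.40). The collagen gene Col4a1 (76.1 to 88.7) and the phosphate transporter gene Slc20a1 (67.7 to 89.8), chosen after their values were seen, were among the 28 as well.

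Ext2 (chr2:93695631-93822568), the other subunit of the heparan sulfate polymerase, had 1 peak in 1 list, Pi replicate 1, with a score of 37.9 (chr2:93762056-93762609, intron 8 of 13). It ranked 2225 of 2666 in that list, at percentile 18.2 and 1.85 times the list's lowest score. The annotation places it on a LINE repeat, in contrast to the Cemip and Ext1 peaks, of which none was on a repeat. A peak in a single list was the commonest outcome in the series, with 37.2% of the 4051 genes, and 5.88% were bound in Pi replicate 1 alone. Ext1 and Ext2 thus shared only the list of Pi replicate 1. The other 3 lists with an Ext1 peak had none in Ext2.

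The other genes of both polymers were counted from lists written down with the results on Cemip and Ext1 known, beside all protein-coding genes, of which 18.0% had a peak in at least 1 list. Of 33 genes of heparan sulfate synthesis and modification, 4 (12.1%) had a peak in any list: Ext1, Ext2, the xylosyltransferase gene Xylt2, which starts the chain, and the sulfotransferase gene Ndst1. Xylt2 was bound only in Pi replicate 2 (3' UTR, percentile 53.5) and Ndst1 only in Ctrl replicate 1 (exon 2 of 15 at its best, percentile 73.1). None of the 33 was bound in an overexpression list. Ext1 was chosen for its presence in each Ctrl and Pi list, and without it the list had 1 bound gene in Ctrl replicate 1, 0 in Ctrl replicate 2, 1 in Pi replicate 1 and 1 in Pi replicate 2, each of them bound in a single list, so nothing is read from this side of the count. All protein-coding genes were bound at 5.76% in Ctrl replicate 1, 9.36% in Ctrl replicate 2, 6.95% in Pi replicate 1 and 8.56% in Pi replicate 2. In GFP OE replicates 1 and 2 this share was 6.37% and 5.52%, and in those of THOC5 OE it was 7.40% and 7.58%. No gene of this list but Ext1 was bound in more than 1 list.

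Of 15 genes of core proteins that carry heparan sulfate, 4 (26.7%) had a peak in any list: Agrn, Hspg2, Col18a1 and Gpc6. Agrn, which encodes agrin, was bound in all 8 lists with a site common to all, and its strongest peak lay in the 3' UTR (chr4:156165732-156166270 in THOC5 OE replicate 2). The Ctrl replicates had it at percentiles 94.5 and 95.2 and the Pi replicates at 97.0 and 96.8. The GFP OE replicates reached 99.3 and 99.4, those of THOC5 OE 99.5 and 99.6. All 4 overexpression lists were thus above the other 4, the side on which Ext1 had no peak. Of the genes bound in all 8 lists 25.2% showed this order, and 1.25% the opposite one. Hspg2, which encodes perlecan, was bound in 6 lists, at percentiles 98.4 to 98.9 in the 4 Ctrl and Pi lists, 83.7 in GFP OE replicate 2 and 98.9 in THOC5 OE replicate 1, with its best peak in exon 35 of 97. Col18a1 was bound in both Ctrl lists (27.9 and 72.1) and in Pi replicate 2 (37.3), and the glypican gene Gpc6 only in Ctrl replicate 2 (57.3).

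Of 12 genes of heparan sulfate breakdown and release, 5 (41.7%) had a peak, against 18.0% of all protein-coding genes. None of them had one in more than 2 lists. The extracellular sulfatase gene Sulf1 (percentiles 13.0 and 17.4) and the lysosomal gene Hgsnat (18.7 and 28.1) were bound in Ctrl replicate 2 and Pi replicate 2. Sulf2 (3.82) and Gusb (28.1) were bound in Pi replicate 2 and Arsg (2.38) in THOC5 OE replicate 2. All of these were at low percentiles.

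Of 33 hyaluronan genes, 8 (24.2%) had a peak in at least 1 list, and Cemip and Itih2 were bound in all 8. Itih2, whose product is bound covalently to hyaluronan, was at percentiles 3.88 to 30.7. By lists with a peak it was thus as recurrent as Cemip, and it was far weaker. Its most recurrent site was in 6 lists and that of Cemip in 5. Cemip2 (also called Tmem2), a membrane-bound relative of Cemip, was bound in 6 lists. Its percentiles were 19.6 and 34.8 in Ctrl, 18.2 in Pi replicate 1, 51.5 in GFP OE replicate 1, and 61.0 and 73.5 in THOC5 OE. Pi replicate 2 and GFP OE replicate 2 had no peak in Cemip2, and no site of it was in more than 3 lists. Vcan, encoding versican, was bound in 4 lists (16.2 to 35.6). Ugdh, which makes the sugar precursor of both polymers, had a peak only in Ctrl replicate 2 (66.8), the receptor gene Cd44 (43.7) and the hyaluronidase gene Hyal1 (57.6) only in Pi replicate 2, and Habp4 only in Pi replicate 1 (21.0). The synthase genes Has1, Has2 and Has3 had no peak in any list.

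**Figure D4:**
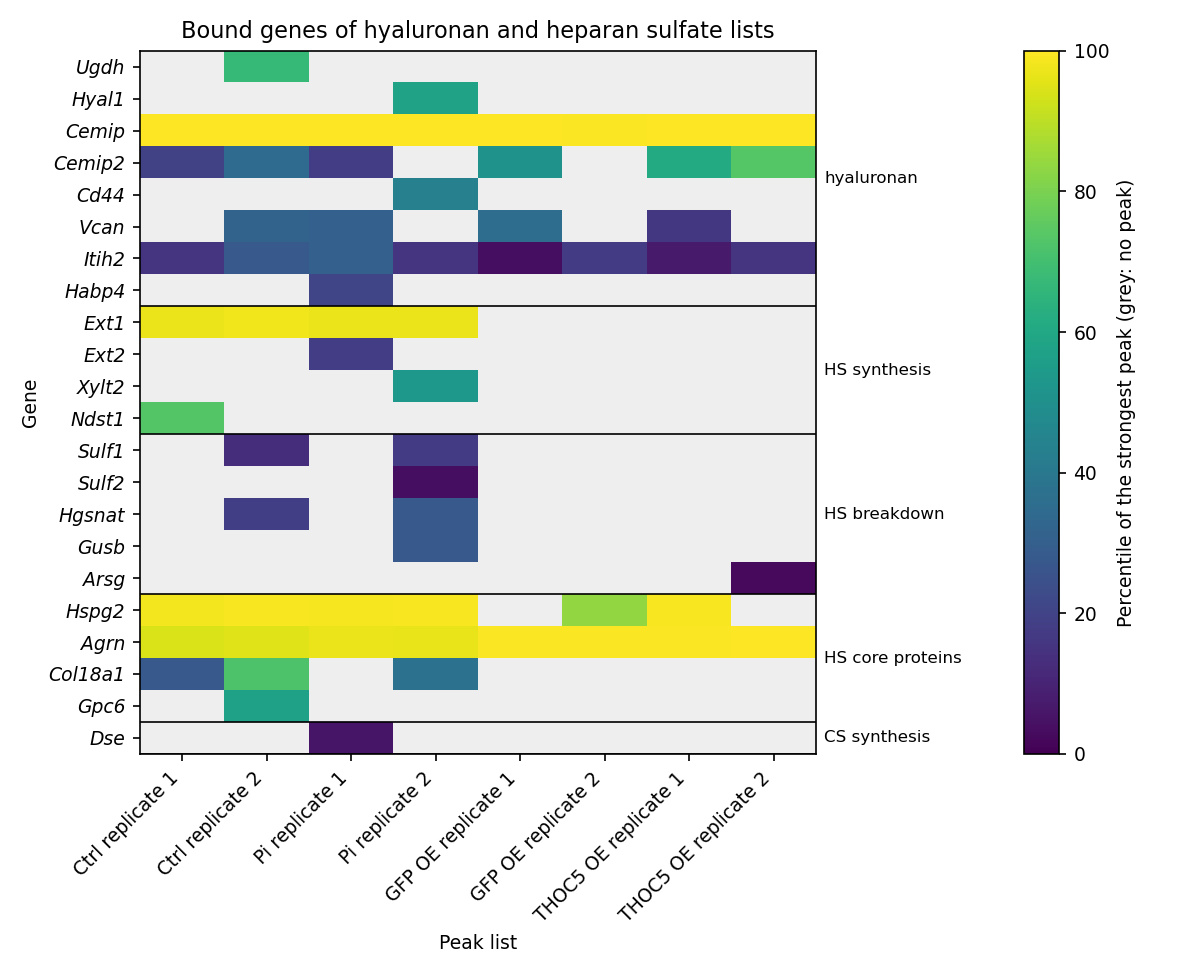
Percentile of the strongest peak in each of the 22 genes of the 5 lists (HS, heparan sulfate; CS, chondroitin sulfate) that had a peak, with genes in rows and the 8 lists in columns; colour gives the percentile within the list and grey marks no peak. Cemip and Agrn are bright in all 8 columns, Ext1 in the 4 Ctrl and Pi columns, and 12 of the 22 genes have a peak in 1 column only.

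For comparison, 1 of 16 genes (6.25%) of chondroitin sulfate synthesis had a peak, Dse in Pi replicate 1 (percentile 5.68). Over the 5 lists, 22 of 109 genes had a peak, 15 of them only in Ctrl or Pi lists, 1 only in overexpression lists and 6 in both. The 15 include Ext1, which was chosen for that side, and number 14 without it. Among all 4051 genes, 38.1% were bound only in Ctrl or Pi lists and 16.5% only in overexpression lists. Thoc5 itself had a peak in Ctrl replicate 2 only, at percentile 3.73, and peaks give no level of the overexpressed gene.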

How the data were processed

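Per the file headers, HOMER's annotatePeaks.pl gave each peak its annotation on mm10. The submitters' processing notes name FastQC, Bowtie2, MACS2 and SAMtools without roles. Which program called the peaks, how it was set and whether it used the 8 inputs is not stated there. There is 1 list per immunoprecipitate, joined to its sample by the condition's abbreviation and the number in its header. The score of each peak is as deposited by the authors, of unknown scale.

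A peak belonged to the gene of the RefSeq transcript named in its annotation (exon, intron, UTR, non-coding or transcription end). Symbols, spans and strands came from RefSeq tables of GRCm38.p6, the same build, for 5224 of 5234 transcripts. The strand of Ext1 had no entry there and was taken as minus, which gives the same distances to its transcription start as the deposited annotation. Peaks overlapping by at least 1 base across lists formed a site. Computation used Python 3.11.15, pandas 2.3.3 and numpy 2.4.6, and gene assignment, site merging and permutation were tested on simulated data with 200 genes.

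Conditions were compared by two-sided exact permutation over lists, with Benjamini-Hochberg adjustment over 8 tests at 0.05 (4 contrasts, 2 measures). Alternatives were the RefSeq span or the nearest gene, a score at or above the list's median, lists cut to 2572 peaks, exons and UTRs only, an overlap of 50% of both peaks, leaving out each list and a replicate block. Genes named are the members, bound genes of the 5 pathway lists, 5 genes by likeness of percentile (predicted genes passed over), markers, Thoc5 and genes whose span or name overlaps member peaks; any other gene was picked with its values known, as were Ubr4, Ogt, Lyst and Snd1. The members and lists were chosen with earlier results of these data known.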

Additional observations from a re-analysis of the deposited data

How the results depend on the processing

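Cemip was bound in 8 lists, in 5 by the nearest gene and in 0 with exons and UTRs only; these alternatives for this count were added after the data were seen. Ext1 was bound in 4 lists under every alternative run, while Ext2 went from 1 list to 0 with scores at or above the list's median and with exons and UTRs only. With an overlap of 50% of both peaks, the Ext1 peaks made 2 sites in place of 1, of which the larger held 3 lists. With exons and UTRs only, the bound genes fell from 8 to 4 for hyaluronan, from 5 to 3 for heparan sulfate breakdown and from 1 to 0 for chondroitin sulfate synthesis. With lists cut to 2572 peaks those of heparan sulfate breakdown fell to 0. Leaving out 1 list at a time, the percentile difference of Cemip between Pi and Ctrl ranged from -0.0094 to 0.11, and it turned negative without Ctrl replicate 1 (-0.0094) or Pi replicate 1 (-0.0024). The percentile difference of the overexpression lists against the others ranged from -0.097 to -0.013. With lists cut to 2572 peaks it was -0.097, and that of THOC5 OE against GFP OE went from 0.20 to 0.12. The difference in Cemip peaks ranged from -1 to 0 for Pi against Ctrl, from -0.5 to 0.5 for THOC5 OE against GFP OE and for GFP OE against Pi, and from -0.5 to -0.083 for the overexpression lists against the others. No test of Cemip passed the threshold under any alternative run, and after adjustment over 8 tests none could have, so this is no sign of stability. Under the nearest gene and with exons and UTRs only, its percentile could not be compared since lists lack a peak.

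With a replicate block, labels were permuted only among lists of equal number. The percentile difference of Cemip between overexpression lists and the others was then -0.060 (exact permutation p 0.444). No call changed, but with so few arrangements none could have after adjustment, so this is no sign of stability either. Nothing in the labels says that equal numbers share an origin, and the differences between replicates 1 and 2 correlated over genes at -0.14 to 0.072 between conditions. The unknown depth of the lists limits every statement on a missing peak.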
